A study of Mus musculus with 9 samples.

Results

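The genes described here encode enzymes that modify or destroy the clock proteins after they are made, together with Timeless, which binds them. They are the casein kinase 1 genes Csnk1d, Csnk1e and Csnk1a1, the catalytic subunits of casein kinase 2 Csnk2a1 and Csnk2a2, the glycogen synthase kinase gene Gsk3b, the F-box genes Btrc, Fbxw11 and Fbxl21, and Timeless. The 10 genes were chosen by name from a list of clock-modifying genes, and every probe set paired with exactly 1 of them was taken, which gave 45 of the 45037 probe sets and 10 of the 18193 genes measured. For each gene the probe set with the highest mean over the 9 arrays is its main probe set.

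The circadian clock is a loop of transcription and repression. BMAL1, encoded by Arntl, pairs with CLOCK and switches on the Per and Cry genes, and the PER and CRY proteins then repress that pair. The length of the cycle depends on how fast PER and CRY are phosphorylated, marked with ubiquitin and broken down, which is the work of the kinases and F-box proteins named here. F-box proteins are the parts of a ubiquitin ligase that recognise its substrate. In the vessel wall the clock is known for daily changes in tone and clotting.

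Aortic RNA was measured on Affymetrix mouse expression arrays, 1 array per sample. There were 4 arrays from male BMAL-/- mice (F02, F03, F05 and F08) and 5 (F01, F04, F07, F09 and F10) from male BMAL+/+ mice, both partially backcrossed to C57Bl/6J and called biological replicates in the design text. All mice had at least 2 weeks of light and dark phases of 12 h each and then at least 30 h of darkness, and were killed at ZT14. The vessels were flushed with saline through the heart before dissection, and the labels name both thoracic aortae and a dissection from the arch to beyond the femoral branches. The age of the mice, the way the allele was made and any pooling of animals were not given in the sources used here. Array F01 is BMAL+/+ by title and strain and BMAL-/- by source name, and was kept in BMAL+/+. Values are the deposited log2 expression values, and all differences below are BMAL-/- minus BMAL+/+ on that scale.

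The targeted gene and the tissue markers set limits on every result. Arntl read 5.87, 6.22, 2.77 and 6.05 on F02, F03, F05 and F08 (BMAL-/-), against 2.76, 6.67, 2.79, 2.82 and 2.74 on F01, F04, F07, F09 and F10 (BMAL+/+). The library labelled BMAL-/- F05 thus stood with BMAL+/+ and the library labelled BMAL+/+ F04 with BMAL-/-, and on the other arrays Arntl was higher where the label was BMAL-/-. Where its probes lie relative to the deletion was not stated by the labels, so Arntl does not check them. As labelled, Arntl differed by 1.67 ± 1.02 (SE), with an exact two-sided permutation p of 0.19. Other clock genes were not uniform. Cry2 stood with the labels, at 6.09 to 6.675 in BMAL-/- (F05 6.63) and 6.681 to 7.13 in BMAL+/+ (F04 6.82). Those Cry2 groups did not overlap, where 0.773% of all probe sets had no overlap. Per1, at 4.97 on F05 and 4.89 on F04, overlapped between the groups. Per3, at 7.98 on F05 and 4.77 on F04, and Clock, at 8.23 on F05 and 9.44 on F04, stood nearer the other genotype on those arrays, as Arntl did. Cry1, at 8.80 on F05 and 10.22 on F04, did so too. Per2 stood with BMAL+/+ on F05 (9.14), and on F04 (8.03) it lay between the other arrays of the groups. The main results are therefore given for the 9 arrays as labelled and also for the 7 arrays without F04 and F05, 3 against 4. The tissue was rich in smooth muscle: the mean of 6 smooth muscle markers was 10.69 to 12.20 in BMAL-/- and 11.34 to 12.45 in BMAL+/+. The markers were lowest on F02 (10.90), F03 (10.69) and F04 (11.34), and the other 6 arrays read 12.08 to 12.45. Dissections also differed in skeletal muscle markers, with means of 7.25 to 11.17 in BMAL-/- and 4.02 to 11.35 in BMAL+/+, and in heart muscle markers, with 5.61 to 9.22 in BMAL-/- and 5.94 to 10.59 in BMAL+/+. The mean of 5 endothelial markers was 5.34 to 5.76 in BMAL-/- and 5.82 to 6.15 in BMAL+/+, with no overlap, and its part in the results was not tested. Of the 5, Pecam1 (-1.39), Tie1 (-0.63) and Esam (-0.33) were lower in BMAL-/- and Kdr (0.54) and Cdh5 (0.11) higher, and 0 passed. In whole tissue, fewer cells of a type and less RNA per cell cannot be told apart.

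Arrays also differed in the 3′ to 5′ signal of the control probe sets, a common measure of RNA integrity, because the target is made from the 3′ end of each transcript. The Gapdh control at the 3′ end exceeded that at the 5′ end, a difference called the Gapdh gap below, by 3.31 on F02, 2.88 on F03, 0.70 on F05 and 0.05 on F08 (BMAL-/-), against 1.26 on F01, 3.01 on F04, 0.12 on F07, -0.05 on F09 and -0.13 on F10 (BMAL+/+). The same 3 arrays, F02, F03 and F04, were highest for the β-actin control, at 4.24, 4.20 and 3.91, where the other 6 read 1.38 to 2.72. They held 2 of the 4 BMAL-/- arrays and 1 of the 5 BMAL+/+ arrays. Without F04 and F05 they held 2 of 3 BMAL-/- arrays and none of the BMAL+/+ arrays. This measure was looked at after the data had been seen.

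None of the 10 genes passed the test. In limma, 0 of the 10 main probe sets and 0 of all 45 had an adjusted p under 0.05, where 0% of all 45037 probe sets did. An equal-variance F-test per probe set, after the series' one-way design, also called 0. At an unadjusted p under 0.05 there was 1 of the 10 main probe sets, where 7.25% of all genes passed, and 2 of the 45, where 8.67% of all probe sets passed. The groups overlapped at every one of the 45, and did not overlap at 0.773% of all probe sets or at 0.726% of the main probe sets of all genes. With 7 arrays again 0 of 45 passed, where 0.00888% of all probe sets and 0.0165% of main probe sets did. Unadjusted, 2 of the 10 genes and 7 of the 45 probe sets had p under 0.05, against 22.3% of all genes and 23.7% of all probe sets, so neither count stands above the background. With 7 arrays the groups did not overlap at 1 of the 45 probe sets, the near-floor Csnk2a2 probe set 1419936_at, where 17.5% of all probe sets did not. Outside F02, F03 and F04, 0 of the 45 passed, where 0.00444% of all probe sets did. One array decided the count with 7 arrays: without F08 as well, 4 of the 10 genes passed (Csnk1e and Csnk2a1 lower, Fbxl21 and Timeless higher in BMAL-/-), where 31.3% of all genes did, and the BMAL-/- arrays left were F02 and F03.

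Of the 10 genes, 5 were higher and 5 lower in BMAL-/-, where 66.4% of all genes were higher. Their median difference was 0.01, and over the main probe sets of all genes it was 0.03. With 7 arrays 6 were higher and 4 lower, where 68.1% of all genes were higher, with a median of 0.03 against 0.04 over all genes. The split depends on the scaling: quantile normalization gave 6 higher and 4 lower with 58.8% of all genes higher, and centring the arrays on 1 median gave 4 higher and 6 lower with 43.9%.

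**Figure D1:**
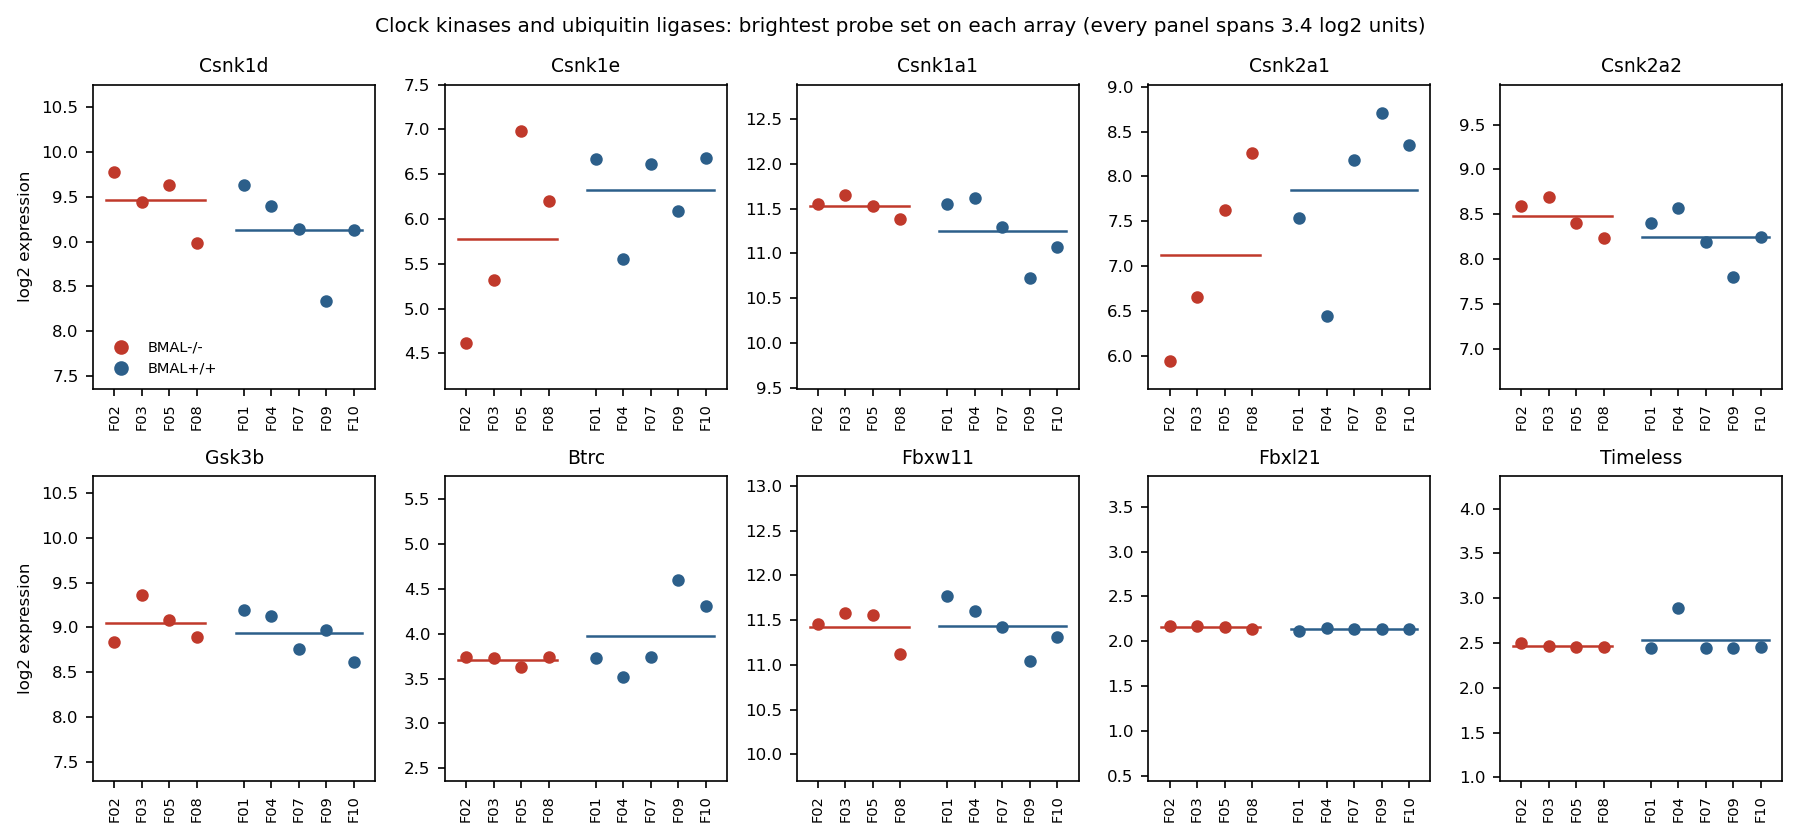
Log2 expression of the main probe set of each of the 10 genes on each array, with BMAL-/- arrays in red at the left and BMAL+/+ arrays in blue at the right of each panel, and a bar at each group's mean. Csnk2a1 and Csnk1e spread the most between arrays, with SDs of 0.97 and 0.78 over the 9 arrays, and the groups overlap in every panel.

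BMAL1 acts at E-boxes, so the promoters of the genes were read for the letters of clock elements. RefSeq windows of 300 bases, 250 before to 50 after the start (GRCm38.p6), were read for 7 of the 10 genes, 10 windows in all. The promoters of Csnk1d, Csnk1a1 and Btrc were not read, so the counts below leave these genes out. None of the 10 windows held the E-box CACGTG, which 7.15% of all 32851 windows hold, nor CACGTT (4.68%), on either strand. The 10 windows also lacked the REV-ERB or ROR element TAGGTCA (2.61%) and the cAMP response element TGACGTCA (1.79%) on either strand. Timeless held the D-box TTATGTAA, which 0.938% of windows hold, at -157 from the start. Among the substrates, Cry1 and 1 of the 2 windows of Per1 held CACGTG, and the windows of Per3, Cry2, Clock and Arntl did not. Per2 had no window in the table. A match or its absence in this window says nothing of binding. The Csnk2a1 window, shown because that gene had the largest difference among the 10, is at chr2:152226590-152226889 on the plus strand, and the Timeless window, shown for its match (in capitals), is at chr10:128237816-128238115 on the plus strand. Both are from RefSeq.
Csnk2a1: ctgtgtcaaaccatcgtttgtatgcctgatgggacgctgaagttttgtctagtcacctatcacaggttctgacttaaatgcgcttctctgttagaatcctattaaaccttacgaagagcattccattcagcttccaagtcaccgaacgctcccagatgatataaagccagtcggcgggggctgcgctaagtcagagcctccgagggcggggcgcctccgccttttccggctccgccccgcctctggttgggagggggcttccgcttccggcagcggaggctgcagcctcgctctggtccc
Timeless: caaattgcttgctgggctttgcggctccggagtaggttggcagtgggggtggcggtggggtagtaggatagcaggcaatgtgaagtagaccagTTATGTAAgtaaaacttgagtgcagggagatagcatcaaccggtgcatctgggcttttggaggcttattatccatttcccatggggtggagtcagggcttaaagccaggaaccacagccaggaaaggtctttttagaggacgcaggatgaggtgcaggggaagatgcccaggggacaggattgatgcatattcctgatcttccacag

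The casein kinase 1 enzymes phosphorylate PER proteins. Csnk1d and Csnk1e encode the delta and epsilon forms, the pair best known for setting the speed of the clock. Csnk1d read 9.77, 9.44, 9.63 and 8.98 on F02, F03, F05 and F08 (BMAL-/-), against 9.63, 9.39, 9.14, 8.33 and 9.13 on F01, F04, F07, F09 and F10 (BMAL+/+). The groups overlapped, and F09 was the low array. The BMAL-/- mean of 9.46 ± 0.34 (SD, n = 4) stood against a BMAL+/+ mean of 9.12 ± 0.49 (SD, n = 5), which differ by 0.33 with a 95% interval of -0.29 to 0.96 and an adjusted p of 0.492 in limma. With 7 arrays the difference was 0.34 (adjusted p = 0.504).

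Csnk1e read 4.62, 5.32, 6.99 and 6.20 on F02, F03, F05 and F08 (BMAL-/-), against 6.67, 5.55, 6.62, 6.09 and 6.68 on F01, F04, F07, F09 and F10 (BMAL+/+). The 3 lowest arrays were F02, F03 and F04, the arrays with the large Gapdh gap, and F05, labelled BMAL-/-, was the highest. The BMAL-/- mean was 5.78 ± 1.03 (SD, n = 4) against a BMAL+/+ mean of 6.32 ± 0.50 (SD, n = 5). They differed by -0.54 ± 0.47 (SE), with an adjusted p of 0.516. Without F04 and F05 the difference was -1.13 ± 0.37 (SE), with an interval of -2.03 to -0.24, an unadjusted p of 0.0201 and an adjusted p of 0.208. Among the 6 arrays outside the gap group it was 0.08 ± 0.30 (SE), so the sign turned there. Those 6 arrays held 2 BMAL-/- and 4 BMAL+/+ arrays. The parts of the gap and of the smooth muscle markers, which were low on the same 3 arrays, were not tested.

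Csnk1a1, the alpha form, is also known as the priming kinase of beta-catenin breakdown. It read 11.55, 11.65, 11.53 and 11.39 on F02, F03, F05 and F08 (BMAL-/-), against 11.55, 11.61, 11.29, 10.72 and 11.07 on F01, F04, F07, F09 and F10 (BMAL+/+). The BMAL-/- arrays lay close together at the upper end of the BMAL+/+ range, and F09 was the low array. The difference was 0.28 ± 0.19 (SE), with an interval of -0.15 to 0.70 and an adjusted p of 0.414, and with 7 arrays it was 0.37 (adjusted p = 0.266).

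Casein kinase 2 phosphorylates BMAL1 and PER2. Csnk2a1, the alpha subunit, varied more than any other of the 10, with an SD over the 9 arrays of 0.97. It read 5.94, 6.65, 7.62 and 8.26 on F02, F03, F05 and F08 (BMAL-/-), against 7.54, 6.45, 8.19, 8.71 and 8.35 on F01, F04, F07, F09 and F10 (BMAL+/+). F02, F03 and F04 were again the lowest arrays, and F08, labelled BMAL-/-, lay among the BMAL+/+ arrays. The BMAL-/- mean was 7.12 ± 1.03 (SD, n = 4) and the BMAL+/+ mean 7.85 ± 0.89 (SD, n = 5). The difference was -0.73 ± 0.58 (SE), with an interval of -2.04 to 0.58 and an adjusted p of 0.476. With 7 arrays it was -1.25 ± 0.57 (SE), with an adjusted p of 0.212, and among the 6 arrays outside the gap group it was -0.26 ± 0.38 (SE).

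Csnk2a2, the alpha prime subunit, did not follow Csnk2a1 when their main probe sets were compared. It read 8.60, 8.69, 8.40 and 8.23 on F02, F03, F05 and F08 (BMAL-/-), against 8.40, 8.57, 8.19, 7.80 and 8.25 on F01, F04, F07, F09 and F10 (BMAL+/+). Here F02, F03 and F04 were the 3 highest arrays and F09 the lowest. The difference was 0.24 ± 0.18 (SE), with an interval of -0.17 to 0.64 and an adjusted p of 0.453 (7 arrays, 0.35 and 0.275). The contrast is one of probe sets. Of the 6 Csnk2a1 probe sets 4 were lower and 2 higher in BMAL-/-, the higher ones being 1419034_at (0.23) and 1453427_at (0.13). F02, F03 and F04 were the 3 highest arrays at 1453427_at too.

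Gsk3b encodes a kinase that acts on CRY2 and REV-ERB alpha. It read 8.84, 9.36, 9.08 and 8.90 on F02, F03, F05 and F08 (BMAL-/-), against 9.19, 9.13, 8.76, 8.97 and 8.62 on F01, F04, F07, F09 and F10 (BMAL+/+). The 2 groups covered nearly the same range, with a difference of 0.11 ± 0.17 (SE), an interval of -0.28 to 0.50 and an adjusted p of 0.717. With 7 arrays the difference was 0.15 (adjusted p = 0.647).

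Btrc and Fbxw11 encode the F-box proteins beta-TrCP1 and beta-TrCP2, which recognise phosphorylated PER. Fbxw11 read 11.45, 11.57, 11.56 and 11.13 on F02, F03, F05 and F08 (BMAL-/-), against 11.77, 11.61, 11.42, 11.05 and 11.31 on F01, F04, F07, F09 and F10 (BMAL+/+). The means were 11.43 ± 0.21 for BMAL-/- (SD, n = 4) and 11.43 ± 0.28 for BMAL+/+ (SD, n = 5), and the interval of the difference was -0.38 to 0.38 (adjusted p = 0.996). With 7 arrays the adjusted p was 0.995. A difference beyond 0.38 in either direction lies outside the interval of this probe set with 9 arrays. With 7 arrays the interval was -0.49 to 0.48. Of the other Fbxw11 probe sets above the median, 1447294_at differed by 0.24 (interval -0.07 to 0.55) and 1425462_at by -0.07 (interval -0.46 to 0.33).

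For Btrc, 4 of 5 probe sets lay near the floor. Its main probe set read 3.74, 3.72, 3.63 and 3.74 on F02, F03, F05 and F08 (BMAL-/-), against 3.73, 3.52, 3.74, 4.60 and 4.31 on F01, F04, F07, F09 and F10 (BMAL+/+). The 4 BMAL-/- arrays stood close together, and F09 and F10 were high among the BMAL+/+ arrays. The difference was -0.27 ± 0.21 (SE), with an interval of -0.75 to 0.21 and an adjusted p of 0.468 (7 arrays, -0.36 and 0.308). Levels of different probe sets are not compared, since probes differ in how they respond.

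Fbxl21 and Timeless lay near the floor of the arrays, below the median of all probe set means, which was 3.19. Fbxl21 encodes an F-box protein that acts on CRY. It had 1 probe set and read 2.14 to 2.17 in BMAL-/- and 2.12 to 2.15 in BMAL+/+. Its difference of 0.02 ± 0.01 (SE) had an unadjusted p of 0.0443 and an adjusted p of 0.37, and with 7 arrays it was 0.03 (adjusted p = 0.208). It is the main probe set behind the count of 1 given above. Of the near-floor probe sets of these genes, 11 were higher and 2 lower in BMAL-/-, and over all near-floor probe sets 87.5% were higher, against 50% of those above the median.

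Timeless encodes a protein of the replication fork that in mammals also binds PER and CRY. It read 2.50, 2.47, 2.45 and 2.46 on F02, F03, F05 and F08 (BMAL-/-), against 2.44, 2.89, 2.44, 2.45 and 2.46 on F01, F04, F07, F09 and F10 (BMAL+/+). Only F04 lay away from the other arrays. The difference was -0.06 ± 0.09 (SE, adjusted p = 0.689) and was 0.03 without F04 and F05. At these levels neither gene can be told from background, so the values say little about whether the aorta expresses them.

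**Figure D2:**
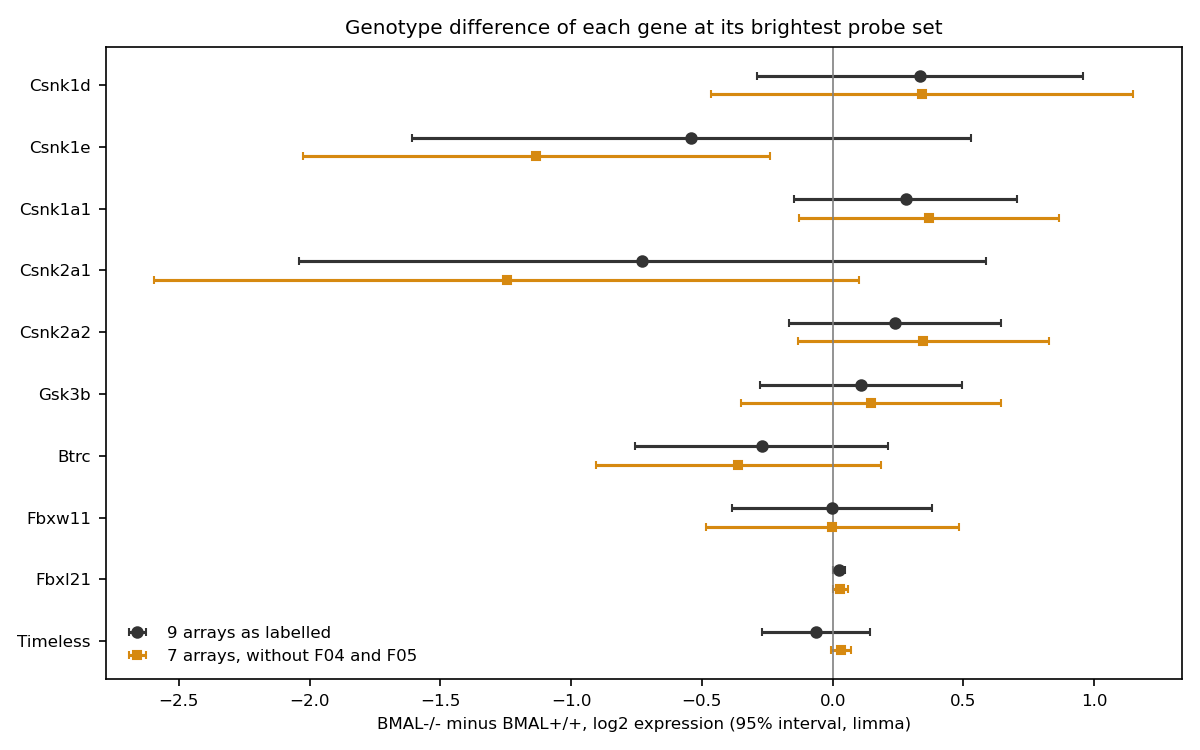
Differences in log2 expression, BMAL-/- minus BMAL+/+, with 95% intervals, for the main probe set of each of the 10 genes, in the 9 arrays as labelled and in the 7 arrays without F04 and F05. With 9 arrays the Fbxl21 interval is the one that leaves out 0, and with 7 arrays the Csnk1e interval of -2.03 to -0.24 does too.

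Probe sets of 1 gene disagreed. All 7 genes with at least 2 probe sets above the median brightness had differences of both signs among them, where 56% of the 4788 such genes did. Of the 5 with at least 4, all 5 had both signs, where 81.4% of the 783 such genes did. Genes with more probe sets are more likely to hold both signs, so these counts are given as a description. The widest case was Csnk1d, whose 5 probe sets ran from -1.02 to 0.33.

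That lowest value came from 1418889_a_at, which read 2.68, 3.33, 5.02 and 5.13 on F02, F03, F05 and F08 (BMAL-/-), against 5.02, 3.78, 5.22, 5.49 and 5.76 on F01, F04, F07, F09 and F10 (BMAL+/+). F02, F03 and F04 were lowest once more, and the difference was -1.02 ± 0.60 (SE, adjusted p = 0.378). Without F04 and F05 it was -1.66 ± 0.56 (SE, adjusted p = 0.208). Another Csnk1d probe set, 1456727_a_at, read 8.32 to 9.15 in BMAL-/- and 8.64 to 8.97 in BMAL+/+, which differed by 0.03 with 9 arrays and 0.16 with 7.

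Csnk2a1 shows the same split. Its probe set 1419037_at read 6.57 to 6.81 in BMAL-/- and 6.66 to 7.04 in BMAL+/+, with a difference of -0.05, while the main probe set 1419038_a_at spread over 2.77. For Csnk1e, 1417175_at read 5.66 to 6.32 in BMAL-/- and 5.37 to 6.35 in BMAL+/+ and had the opposite sign, 0.30 ± 0.23 (SE), to its main probe set. The lowest difference at another Csnk2a1 probe set was -0.20, at 1419035_s_at.

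**Figure D3:**
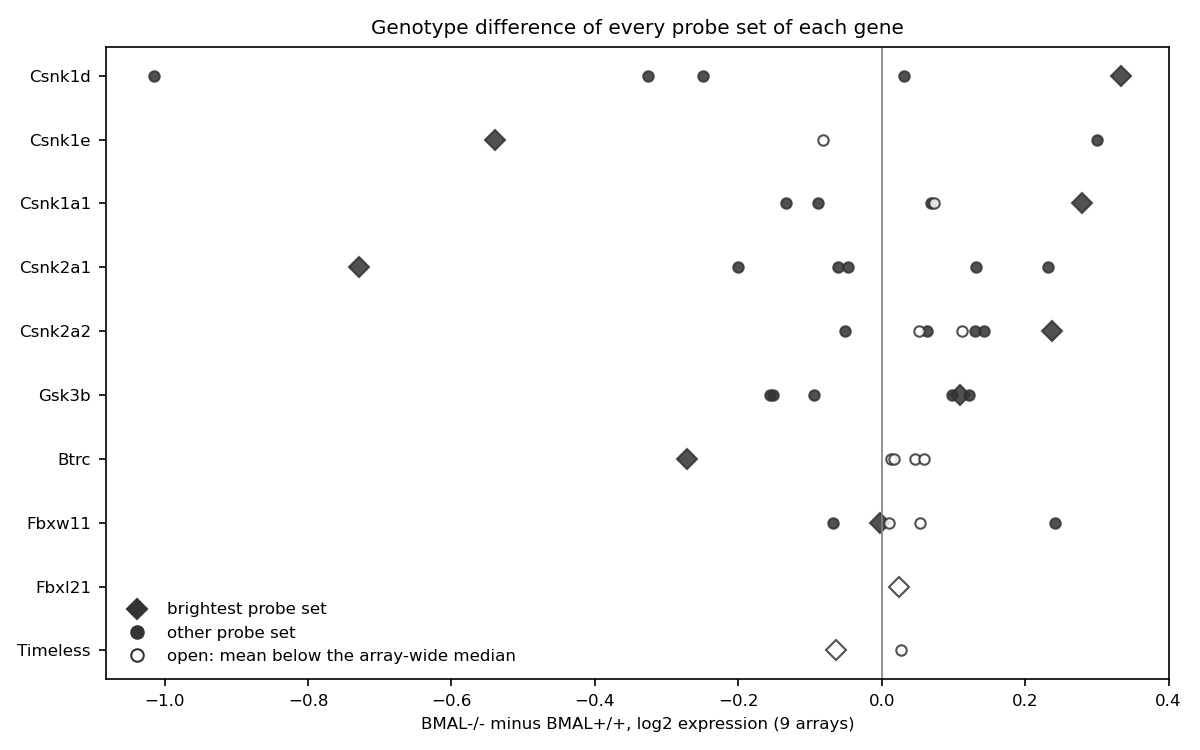
Difference in log2 expression, BMAL-/- minus BMAL+/+, for each of the 45 probe sets, grouped by gene, with probe sets near the floor drawn apart from those above the median brightness. Csnk1d, Csnk1e and Csnk2a1 have the probe sets with the most negative differences beside others close to or above 0.

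The arrays F02, F03 and F04 were the 3 lowest of the 9 at 4 of the 32 member probe sets above the median, namely Csnk1d 1418889_a_at and 1415825_s_at, Csnk1e 1417176_at and Csnk2a1 1419038_a_at, where 9.96% of all such probe sets had them lowest. They were the 3 highest at 4 others, Csnk2a1 1453427_at and Csnk2a2 1453099_at, 1429302_at and 1429301_at, where 11.6% of all such probe sets had them highest. These shares are near the background. In a model with genotype and the Gapdh gap, the slope on the gap passed an adjusted p of 0.05 at 2 of the 45 probe sets, Csnk2a1 1419038_a_at (-0.64 ± 0.06 per unit of gap, adjusted p = 0.00369) and Csnk1d 1418889_a_at (-0.66 ± 0.06, adjusted p = 0.00481), where 7.33% of all probe sets did. The genotype difference in that model was -0.16 ± 0.15 (SE) for Csnk2a1, -0.17 ± 0.33 (SE) for Csnk1e and -0.43 ± 0.17 (SE) for Csnk1d 1418889_a_at, and 0 of the 45 passed, where 0% of all probe sets did. The gap and the genotype label are only partly separate, since 2 of the 3 arrays are BMAL-/-. The remaining array, F04, is labelled BMAL+/+, but its Arntl stood with BMAL-/-. The separation of gap and genotype in that model thus rests in part on the label of F04. It also rests on F05 and F08, labelled BMAL-/- with gaps of 0.70 and 0.05, and Arntl on F05 stood with BMAL+/+.

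**Figure D4:**
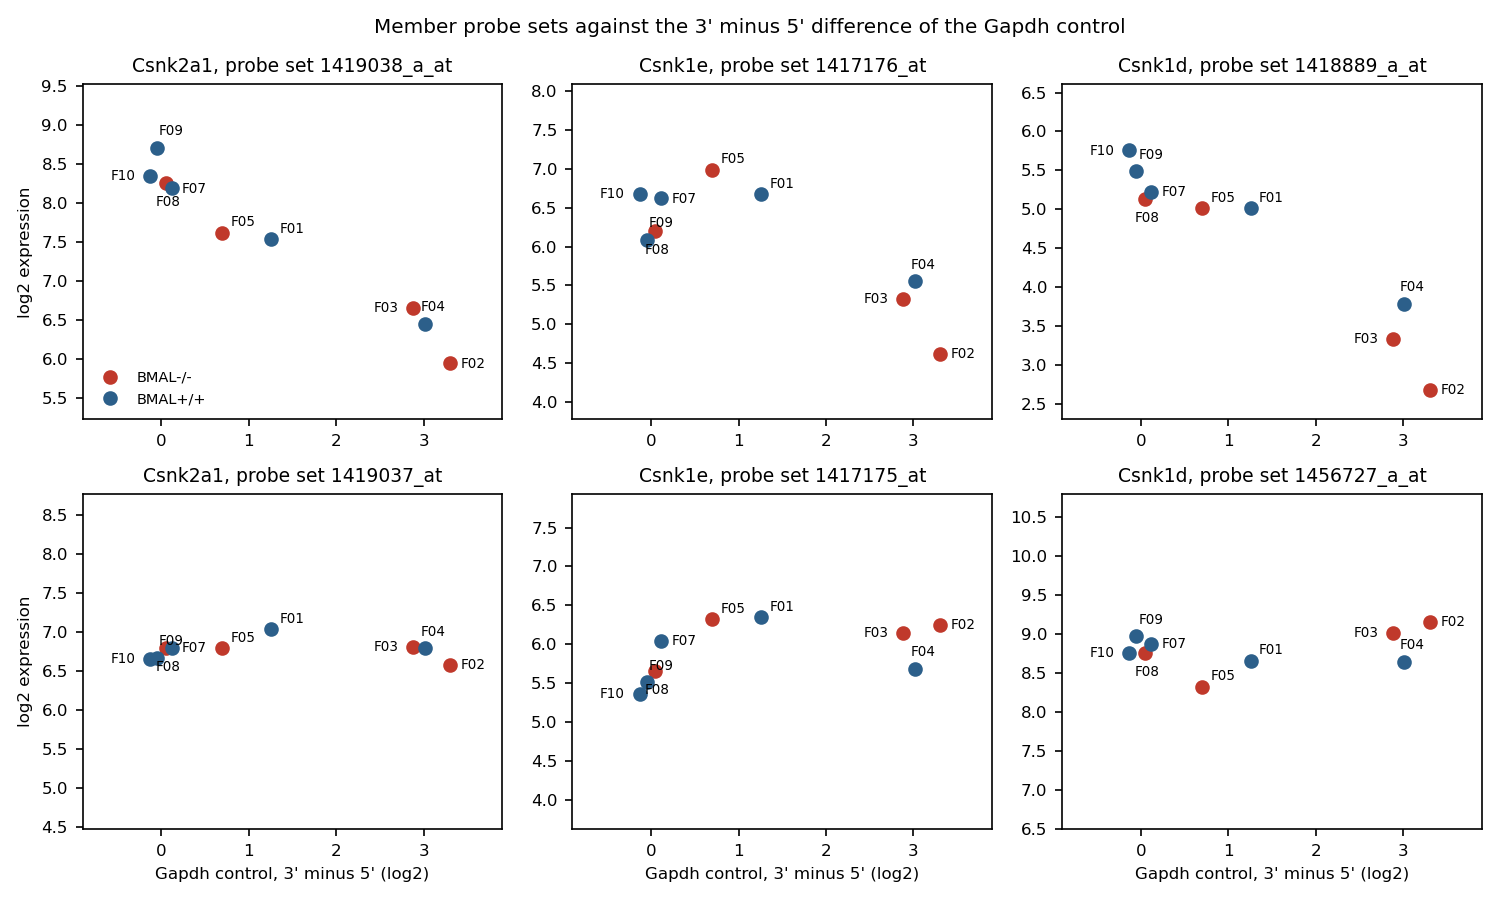
Log2 expression of 6 probe sets on each array against the difference between the 3′ and 5′ Gapdh control probe sets (log2), with BMAL-/- arrays in red and BMAL+/+ arrays in blue. Above are Csnk2a1 1419038_a_at, Csnk1e 1417176_at and Csnk1d 1418889_a_at, which are lowest on F02, F03 and F04 and have each gene's lowest difference among bright probe sets, and below the bright probe set of each with the smallest slope on the gap, where the 3 arrays are not the lowest.

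By likeness of pattern, the genes whose values across the 9 arrays correlated most with Csnk2a1 were Rab7 and Atp5g2 (Pearson r 0.99 each), among 11181 genes above the median brightness. For Csnk1e they were Rhob (0.98) and Gak (0.97), and for Csnk1d Smad4 and Aak1 (0.99 each). The 3 were taken as those of the 10 genes with the largest SD over arrays. These correlations are over 9 arrays that share the array gaps above, and are given without a test.

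Other genes of the same pathway were looked at from 6 lists covering relatives of the kinases, other kinases, phosphatases, ubiquitin ligase parts, deubiquitinases and Timeless partners. Of 42 genes 39 were measured, and 22 were higher and 17 lower in BMAL-/-, where 66.4% of all genes were higher, with a median of 0.01. Higher and lower genes numbered 1 and 3 among the kinase relatives, 4 and 5 among the other kinases, 2 and 4 among the phosphatases, 7 and 4 among the ligase parts and 2 and 1 among the deubiquitinases. All 6 Timeless partners were higher, 3 of them near the floor, where 87.5% of all probe sets were higher. In limma 0 passed, and at an unadjusted p under 0.05 there was 1, Chek1, near the floor, where 7.25% of all genes passed, while the F-test gave a count of 1 too. With 7 arrays 0 passed, and 5 were higher and 3 lower at an unadjusted p under 0.05, a total of 8 of 39 that is not above the 22.3% of all genes.

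Named by the smallest p, Csnk1g2, a gamma form of casein kinase 1, differed by -0.54 ± 0.25 (SE) and Akt1, a growth factor kinase, by -0.43 ± 0.22 (SE), each at an adjusted p of 0.37. Usp2, a deubiquitinase of clock proteins, read 5.54 to 7.30 in BMAL-/- and 6.42 to 7.78 in BMAL+/+, a difference of -0.71 ± 0.38 (SE) at an adjusted p of 0.37, and -1.17 (adjusted p = 0.208) with 7 arrays. Cul4a, the scaffold of another ligase, differed by 0.29 (adjusted p = 0.393), Dyrk1a, a kinase of CRY2, by 0.28 (adjusted p = 0.403), Ppp2cb, a catalytic subunit of phosphatase 2A, by -0.33 (adjusted p = 0.475) and Ppp1cc, one of phosphatase 1, by 0.24 (adjusted p = 0.405). With 7 arrays these were -0.73 for Csnk1g2, -0.62 for Akt1, 0.43 for Cul4a, 0.45 for Dyrk1a, -0.58 for Ppp2cb and 0.33 for Ppp1cc, at adjusted p of 0.208 to 0.242. Csnk1g2, Akt1, Usp2 and Ppp2cb were lowest on the 3 arrays with the large Gapdh gap. Among the other 6 arrays they differed by -0.29 for Csnk1g2, -0.14 for Akt1, -0.40 for Usp2 and -0.08 for Ppp2cb, and the slope on the gap passed for Csnk1g2 (adjusted p = 0.0363) and Ppp2cb (adjusted p = 0.00967). Dyrk1a, Cul4a and Ppp1cc were highest on those 3 arrays, and the slope passed for Dyrk1a (adjusted p = 0.0477 in limma). It passed for other genes of the lists too, and at 7.33% of all probe sets. The other named genes were Csnk1g3 (0.07), Usp7 (0.17), and, near the floor, Dtl (0.19), Chek1 (0.08) and Wdhd1 (0.07). None of these genotype differences passed the test.

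Among the substrates of the enzymes, 7 clock genes were measured and 0 passed with 9 arrays. Cry1 read 8.80 to 10.30 in BMAL-/- and 7.50 to 10.22 in BMAL+/+, and Per2 read 7.04 to 9.14 in BMAL-/- and 8.03 to 9.17 in BMAL+/+, differences of 1.19 ± 0.54 and -0.96 ± 0.44 (SE), each at an adjusted p of 0.37. With 7 arrays they were 1.92 for Cry1 and -1.60 for Per2, each at an adjusted p of 0.208, with no overlap of the groups. Per3 and Clock, named after their values were seen, were -1.84 and 0.52 with 9 arrays and -3.35 (adjusted p = 0.18) and 1.01 (adjusted p = 0.208) with 7, also with no overlap, where 17.5% of all probe sets have none. Of the 7 substrates Arntl passed with 7 arrays, at 3.27 (adjusted p = 0.000511 in limma). Its own values had singled out F04 and F05, so this pass is no independent evidence. On F05, Cry1, Per2, Per3 and Clock also stood nearer BMAL+/+, so their lack of overlap without that array is no independent evidence either.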

How the data were processed

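RNA of the aorta of 9 male mice, 4 BMAL-/- and 5 BMAL+/+, was measured on 1 array each. The authors deposited log2 expression of 45101 probe sets. GCRMA and MAS5 are named, per the submitters' processing notes, with no role or version; background and normalization settings are not given in the sources used here. GCRMA adjusts for probe sequence and sets a floor, which narrows the spread of dim probe sets. Values were used as deposited. The 64 control probe sets were left out of the tests, leaving 45037, of which 34945 are paired with 1 gene; those with several genes (932) or none listed (9160) name no gene. Symbols were updated to RefSeq names (GRCm38.p6). Medians per array were 3.13 to 3.24. Precision is limited by the number of arrays.

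A linear model with genotype as its term was fitted in limma 3.58.1 (R 4.3.3; eBayes with a mean-variance trend, 1.76 prior degrees of freedom), with Benjamini-Hochberg adjustment over all 45037 probe sets, two-sided, at 0.05. A "near floor" probe set has a mean below the median of all probe set means, 3.19. The 10 genes, the pathway and marker lists and the comparison without F04 and F05 were chosen with earlier results of these data known. Named beside the 10 genes are Arntl, 2 genes per pathway list with the smallest p and, for the 3 genes with the largest SD, the 2 with the highest r. Per1, Per3, Cry2 and Clock were named after their values were seen. The Gapdh gap was used after seeing the data, as a covariate and to leave out the 3 arrays with the largest gap. The groups share no replicate numbers. The main fit was run on simulated data with independent noise at each probe set. Those data held none of the array-wide differences described above, so they do not show the power of the tests here. Promoters come from a RefSeq table. Figures used matplotlib 3.10.9.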

Additional observations from a re-analysis of the deposited data

Results flagged for a closer look

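Each group of 4 or 5 arrays was tested for a single array far from the others, for the main probe sets of the 10 genes and Arntl. Among the 20 groups of the 10 genes 2 held such an array, where chance flags about 1 in 20. Btrc read 3.63 on F05 (BMAL-/-), where the other BMAL-/- arrays read 3.72 to 3.74. Timeless read 2.89 on F04 (BMAL+/+), where the others read 2.44 to 2.46. Both Arntl groups also held one, but these values were what singled out F04 and F05. Arntl read 2.77 on F05, where the other BMAL-/- arrays read 5.87 to 6.22, and 6.67 on F04, where the other BMAL+/+ arrays read 2.74 to 2.82.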

How the results depend on the processing

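Each gene's difference was recomputed under 22 or 23 alternatives, where 0 of the 10 genes passed an adjusted p of 0.05 and the lowest was 0.114. The exception was the count without F04, F05 and F08 together, given below. Of 228 member values 17 had the other sign. Csnk1d was -0.25 with its brightest plain probe set and -0.25 with the mean of its probe sets. A plain probe set is one whose name ends in _at without _x, _s or _a before it. For Csnk1d it was 1449932_at, with a mean of 5.14, and the brighter 1456727_a_at (mean 8.79), which differed by 0.03, was set aside. Csnk1e was 0.20 with array weights and 0.079 without the 3 arrays with the largest Gapdh gap. Csnk2a1 stayed below 0 but moved widely: it was -0.11 with the mean of its probe sets, -0.047 with its brightest plain probe set, -0.16 with the gap as a covariate, and between -1.11 (without F08) and -0.34 (without F02) when 1 array was left out. Csnk1e was between -0.94 and -0.15 when 1 array was left out. Gsk3b was -0.012 with the mean of its probe sets, and Btrc 0.047 with its brightest plain probe set. Fbxw11, near 0 throughout, was 0.15 with F01 in BMAL-/-, 0.10 with array weights, 0.047 with the mean of its probe sets, 0.041 after quantile normalization, and between -0.098 and 0.099 when 1 array was left out. Fbxl21 was -0.016 after centring on 1 median. Timeless was 0.031 without F04 and F05, 0.0069 without the 3 gap arrays, and between -0.088 and 0.024 when 1 array was left out.

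Of the pathway genes, Csnk1g3 was -0.028 with the gap as a covariate and -0.046 to 0.20 when 1 array was left out. Ppp2cb (0.079) and Usp7 (-0.56) turned with the brightest plain probe set, Usp7 (-0.11) also with the mean of its probe sets, and Dtl was -0.00031 with array weights. Arntl was 3.27, and passed, without F04 and F05, the arrays that its own values had singled out.

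With 9 arrays 0 probe sets passed, with 4 passing without F04 and F05 and 2 without the 3 gap arrays. After F04 and F05 were left out, leaving out 1 more array gave 2 to 16445. The highest count, without F08, compares F02 and F03 with 4 BMAL+/+ arrays, so that both BMAL-/- arrays had the large gap. There 4 of the 10 genes passed (31.3% of all genes did), Csnk1e at -1.54 and Csnk2a1 at -1.90, with Fbxl21 and Timeless at 0.04 each; 0 passed when another array was left out. The part of the gap in these counts was not tested. No paired analysis was possible because the groups share no replicate numbers.

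Near the floor the deposited values are compressed, and 4 against 5 arrays leave wide intervals for Csnk1e and Csnk2a1. A background correction of scanner files was not run here.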

Other observations

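Among the 8 genes above the median brightness, F09 (BMAL+/+) was the lowest of the 9 arrays at 4, Csnk1d, Csnk1a1, Csnk2a2 and Fbxw11, and the highest at 2, Csnk2a1 and Btrc. F09 also had the highest mean of the neuron and Schwann cell markers, 7.63, where the BMAL-/- arrays had 3.78 to 5.47 and the other BMAL+/+ arrays 3.89 to 4.97.

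The other marker lists overlapped between the groups. Their means were 8.67 to 10.29 in BMAL-/- and 9.29 to 10.45 in BMAL+/+ for fibroblasts, 5.11 to 6.82 in BMAL-/- and 5.71 to 7.81 in BMAL+/+ for macrophages, 10.08 to 11.25 in BMAL-/- and 10.43 to 11.72 in BMAL+/+ for adipocytes, and 3.24 to 4.67 in BMAL-/- and 3.16 to 4.04 in BMAL+/+ for proliferating cells.

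Some deposited values repeat between arrays to 6 decimals. Of the 45 member probe sets, 16 had 1 value on at least 2 arrays and 3 on at least 3, such as Csnk2a1 1419037_at at 6.79 on F08 (BMAL-/-) and on F04 and F07 (BMAL+/+). Over all 45037 probe sets, 25.4% had 1 value on at least 2 arrays and 7.66% on at least 3. Repeats cross the genotypes.

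The 3′ control for 18S RNA read 12.3 on F02 (BMAL-/-), where the other 8 arrays read 6.95 to 8.96.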
